A study of Arabidopsis thaliana with 8 samples.

Results

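ARR12 sites that fell inside protein-coding genes were described in root apical meristems of Arabidopsis thaliana, from a ChIP-seq study of an ARR12-GFP fusion. A site needed a peak summit in each of the 2 ARR12-GFP lists, linked within 200 bp, and no summit of the Col-0 control within 200 bp. Its position was the midpoint between the best-scoring summit of each list. Of 3503 such reproducible sites on the 5 nuclear chromosomes, 1026 (29.3%, exact binomial 95% interval 27.8 to 30.8) lay inside the extent of a protein-coding gene, and the other 2477 lay outside. The 1026 sites lay in 966 of 27444 protein-coding genes, so that 3.52% of all such genes held a site.

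Seedlings of ecotype Col-0 carrying the ARR12-GFP fusion were compared with a control genotype, which the series' design names Col-0 while its sample titles read GFP. Seeds of both were stratified for 5 days and grown upright for 3 days at 22 °C in long days on Murashige-Skoog medium. Chromatin of fixed root meristems was precipitated with an anti-GFP antibody in 2 biological replicates per genotype, and input DNA was sequenced beside each but is not analysed here. The promoter that drove the fusion and the number of transgenic lines are not given in the labels. The lists hold 1 summit per peak and neither read numbers nor expression values, so read depth is unknown and the tissue was not checked against marker genes. Site positions are in TAIR10 coordinates. Every interval given is an exact binomial interval at 95% for counting error alone.

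ARR12 belongs to the B-type response regulators, DNA-binding proteins that turn the cytokinin phosphorelay into transcription. Membrane histidine kinases bind cytokinin, phosphotransfer proteins carry the phosphate to the nucleus, and phosphorylated B-type regulators activate their target genes. Among these targets are the A-type response regulators, which lack the DNA-binding domain and dampen the signal. In the root tip, cytokinin is known to promote the change from division to differentiation, in part by opposing auxin.

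The anti-GFP lists were first compared as libraries. In ARR12-GFP replicates 1 and 2, 2372 of 8137 summits (29.2%, interval 28.2 to 30.2) and 2069 of 5492 summits (37.7%, 36.4 to 39.0) lay inside genes. In Col-0 replicates 1 and 2, 59 of 199 (29.6%, 23.4 to 36.5) and 53 of 251 (21.1%, 16.2 to 26.7) did. The share averaged 33.4 ± 6.03% in ARR12-GFP and 25.4 ± 6.03% in Col-0 (SD, n = 2 each). A two-sided exact permutation test did not separate the genotypes by this difference of 8.03 percentage points (p = 0.667, where 2 against 2 libraries allow no p below 0.333). With only the summits at or above the median score of their list, the difference was -2.79 points (exact permutation p = 1). With chloroplast and mitochondrial summits added to each total and counted as outside, it was 17.6 points (exact permutation p = 0.333, the smallest possible).

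Depth inside the gene was compared next. In ARR12-GFP replicates 1 and 2, 52.9% and 42.3% of the summits inside genes lay less than 200 bp from the nearer gene end, against 28.8% and 26.4% in Col-0 replicates 1 and 2. The 2 genotypes did not overlap in this share, though the Col-0 shares rest on only 17 of 59 and 14 of 53 summits. Of all gene sequence, 7.87% lies 0 to 99 bp and 8.07% lies 100 to 199 bp from the nearer end, so the Col-0 shares were also above the share of sequence. No test was made of the difference, since an exact permutation test of 4 libraries cannot give a p below 0.333. The median depth below the nearer end was 179.5 and 247 bp in the ARR12-GFP lists and 308 bp in each Col-0 list. In the zone less than 200 bp deep the ARR12-GFP lists held 1255 and 875 of their 8137 and 5492 summits. The much shorter Col-0 lists held 17 and 14 of their 199 and 251.

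Reproducible sites were concentrated near the ends of genes. Their median depth was 192 bp, 10% of them lay within 36 bp of a gene end and 10% at 1168.5 bp or deeper. In all, 529 of the 1026 (51.6%) lay less than 200 bp deep. Per Mb of sequence at a given depth, there were 57.5 sites at 0 to 99 bp, 45.5 at 100 to 199 bp, 26.4 at 200 to 299 bp and 13.9 at 300 to 399 bp. From there the density stayed between 6.10 and 7.77 sites per Mb over all depths up to 1999 bp, and it was 3.00 at 2000 bp and deeper. On the other side of the gene end, the first 200 bp outside held 80.9 sites per Mb and the zone of 501 to 1000 bp held 62.7. Inside genes as a whole the density was 15.9 sites per Mb, against 45.3 outside.

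**Figure D1:**
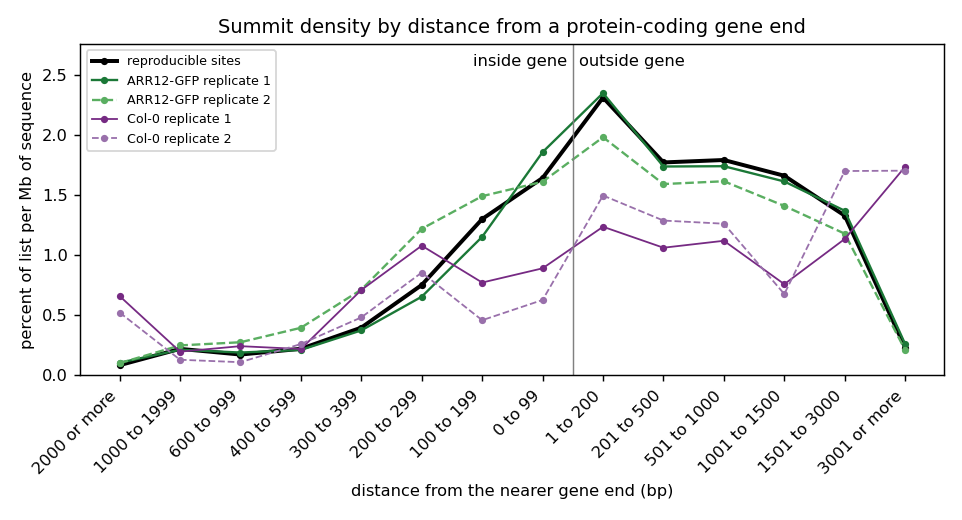
Density of summits by distance from the nearer end of a protein-coding gene (x axis, bp; deepest inside at the left, farthest outside at the right), as percent of each list per Mb of sequence in that zone (y axis). The black line gives the 3503 reproducible sites, green lines the ARR12-GFP lists and purple lines the Col-0 lists. The sites and both ARR12-GFP lists are highest at 1 to 200 bp outside and decline over the first 400 bp inside, while the Col-0 lists of replicates 1 and 2 rest on 9 and 8 summits at 0 to 99 bp inside.

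The decline with depth was also present among long genes alone, where there was room at every depth. In the 7014 genes of at least 3000 bp, which held 331 sites, the density was 49.2 sites per Mb at 0 to 199 bp, 12.4 at 200 to 499 bp and 5.42 at 500 to 999 bp. It was 8.41 at 1000 to 1499 bp and 4.31 at 1500 bp and deeper. Relative to gene length, 537 sites (52.3%) lay in the outermost 10% at either end, and 100 sites (9.75%) lay in the middle 20%.

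Position was limited by how closely the replicates' summits coincided. The best summits of the 2 ARR12-GFP lists lay a median of 59 bp apart at sites inside genes and 49 bp apart at sites outside. In 926 sites (90.3%) both best summits were inside the same gene. The other 100 had at least 1 of them beyond the gene end, and their midpoints lay a median of 21 bp deep. With both summits required inside the same gene, the median depth was 219 bp.

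Strand was not used here, so the start and the end of a gene are not told apart. The ends could be compared by the free space beyond them. Among the 428 sites less than 200 bp deep whose gene had unequal gaps to its coding neighbours on both sides, 249 (58.2%, interval 53.3 to 62.9) lay at the end facing the larger gap. The median gap was 1463.5 bp at the nearer end and 1093 bp at the other end. At 500 bp and deeper, 105 of 212 sites (49.5%, 42.6 to 56.5) lay nearer to the end with the larger gap. Gaps beside genes holding a site had a median of 1383.5 bp, against 903 bp for all protein-coding genes.

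The deepest site lay 3734 bp inside AT5G13250, at position 4238200 of chromosome 5, and scored 17.7 in ARR12-GFP replicate 1 and 4.14 in replicate 2. A site lay 2701 bp inside ABCG25 (AT1G71960), which encodes an exporter of abscisic acid, and its scores were 8.11 and 6.88. The next lay 2454 bp inside KAN2 (AT1G32240), a KANADI transcription factor gene of organ polarity, with scores of 21.5 and 16.7. CSLA02 (AT5G22740), a cellulose synthase-like gene, held 2 of the 5 deepest sites, at 2386 and 2321 bp. These 5 sites lay at 42.2% to 48.0% of the gene's length.

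Genes holding a site had a median length of 2426 bp (range 108 to 10558), against 2078 bp for all protein-coding genes. Across 10 equal classes of gene length, 0.510% of the shortest genes (up to 770 bp) held a site, 2.44% of those of 771 to 1146 bp did, and the other 8 classes lay between 3.25% and 5.62%. The highest share fell at 2794 to 3310 bp and not in the longest class, of which 4.01% held a site. Per Mb of gene, the order was different: 28.7 sites at 1147 to 1489 bp, 19.6 at 2794 to 3310 bp and 7.51 in the longest class. Genes with a site 200 bp or deeper made up 0.0364% of the shortest class and 2.41% of the longest. Genes of up to 770 bp have little or no sequence at that depth, so this contrast is in part fixed by gene length.

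**Figure D2:**
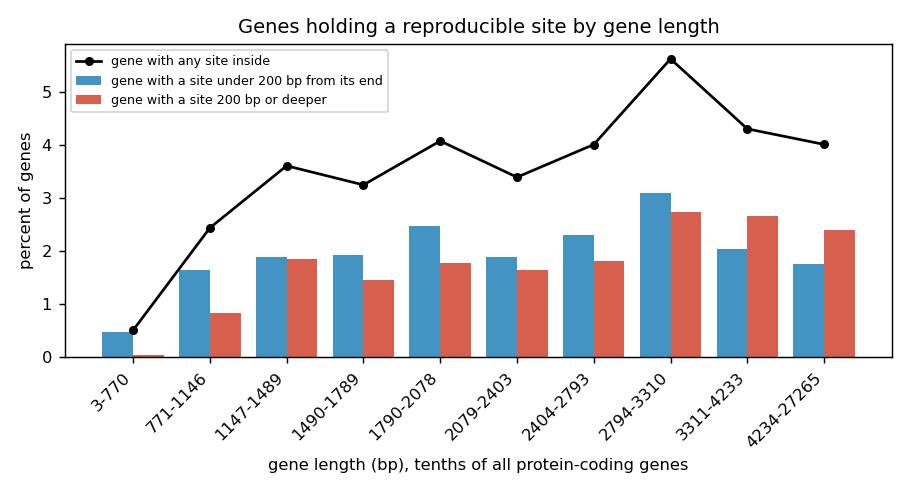
Percent of protein-coding genes holding a reproducible site (y axis) in 10 equal classes of gene length (x axis, bp). The black line counts any site inside the gene, blue bars genes with a site under 200 bp from the nearer end and red bars genes with a site 200 bp or deeper, and a gene with both is in both bars. The line is lowest, at 0.510%, for the shortest genes and highest, at 5.62%, for those of 2794 to 3310 bp.

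The longest hosts were MYA2 (AT5G43900, 10558 bp), a myosin gene, then AT3G12020 and CSI1 (AT2G22125), which encodes a protein that links cellulose synthase to microtubules. In MYA2 the site lay 487 bp deep, and in CSI1 it lay 36 bp deep. AT5G53410 was the shortest host, with 108 bp and scores of 9.33 and 3.41 in ARR12-GFP replicates 1 and 2.

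Most hosts held a single site. Of the 966 genes, 892 held 1, 73 held 2 and GAD (AT5G17330), a glutamate decarboxylase gene whose enzyme makes GABA, held 3. The GAD sites lay 138, 1822 and 1096 bp deep. Their scores were 15.9, 23.6 and 7.17 in ARR12-GFP replicate 1 and 12.1, 26.1 and 8.59 in replicate 2, so the site nearest the middle of the gene was the highest in both. In the 74 genes with more than 1 site, neighbouring sites lay a median of 1466.5 bp apart (508 to 4302). Of the 1026 sites, 15 lay in 2 overlapping coding genes, and 22 lay also in an annotated lncRNA.

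Sites inside genes often had company outside. Of the 966 hosts, 247 (25.6%, interval 22.8 to 28.4) had another reproducible site outside within 1500 bp of the gene, against 2417 of 26478 protein-coding genes that held none (9.13%, 8.78 to 9.48). Over all protein-coding genes this share was 9.71%. Among genes with a symbol of their own the shares were 27.5% for hosts and 10.5% for genes holding no site. Gaps beside hosts were also larger, with a median of 1383.5 bp against 903 bp for all protein-coding genes. The shares are not adjusted for this space, and its part in them was not tested. For 349 of the 1026 sites (34.0%) another coding gene lay within 1000 bp, so a site inside one gene may also lie beside a second.

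Score is the peak caller's −log10 value and was used only for ranks within a list. Sites inside genes ranked lower than sites outside in both lists. In ARR12-GFP replicate 1 the median score percentile was 62.4 for sites inside genes and 75.5 for sites outside, a difference of -13.1 points, and the median scores were 12.99 and 17.9. In replicate 2 the median percentiles were 56.0 inside and 59.6 outside, a difference of -3.64 points, with scores of 8.24 and 8.77. The direction was the same in the 2 libraries, which are too few for a test, and the size was not. Among summits at or above the median score of their list, the differences were -4.69 points in replicate 1 and -0.669 in replicate 2. The share inside was lower among high-scoring sites. In all, 139 of the 350 sites in the lowest of 10 classes of the mean percentile (39.7%) were inside genes, against 74 of 351 in the highest class (21.1%, interval 16.9 to 25.7). Of the 100 highest sites, 17 were inside.

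Depth and score were not ordered in step. In replicate 1 the median percentile was 65.5 for sites less than 200 bp deep, 55.7 at 200 to 999 bp and 73.3 at 1000 bp and deeper. In replicate 2 the corresponding medians were 56.4, 53.7 and 58.0, so the zone of 200 to 999 bp was lowest in both lists. The 1124 sites outside genes but within 500 bp of one had medians of 70.8 in replicate 1 and 57.2 in replicate 2, and the deepest group inside held 134 sites. Over all inside sites, the rank correlation between depth and score was -0.016 in replicate 1 and 0.025 in replicate 2. Across the same sites the scores of the 2 lists had a rank correlation of 0.562 inside genes (n = 1026) and 0.665 outside (n = 2477), as a description over sites of the same 2 libraries.

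**Figure D3:**
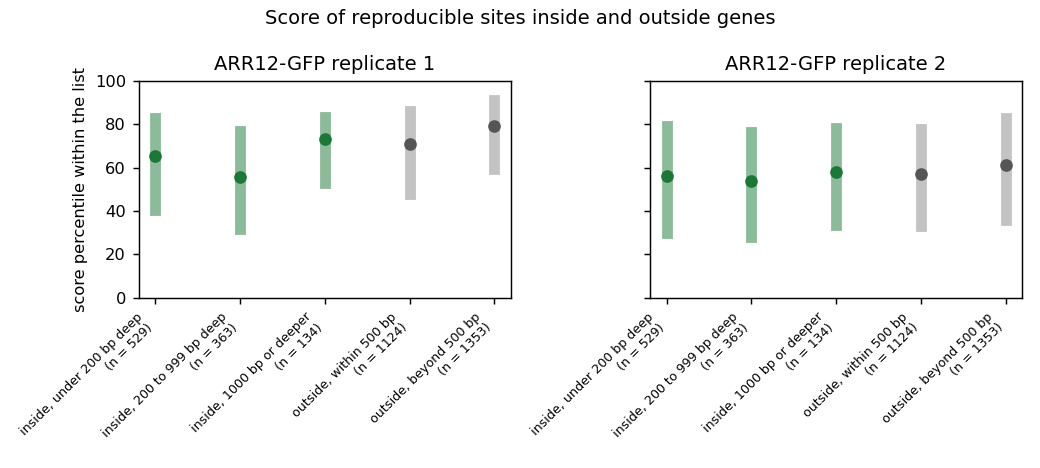
Score percentile within the ARR12-GFP replicate 1 list (left) and replicate 2 list (right) for reproducible sites by place. Dots are medians and bars span the middle 50% of sites, with green for sites inside genes and grey for sites outside. The zone of 200 to 999 bp inside genes has the lowest median in both lists, 55.7 and 53.7.

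The 2 ARR12-GFP lists differed in how often a summit inside a gene was found again in the other list. In replicate 1, 1017 of 2372 summits inside genes (42.9%, interval 40.9 to 44.9) had a partner within 200 bp, and 44.4% of summits outside did. In replicate 2, 1075 of 2069 summits inside genes (52.0%, 49.8 to 54.1) had a partner, against 73.1% (71.5 to 74.5) of those outside. The lower share inside was present in each of 4 equal classes of the replicate 2 scores, with 34.5% inside against 57.7% outside in the lowest class and 73.7% inside against 87.1% outside in the highest. In replicate 1 the order within the classes was the opposite, with 19.4% inside against 14.9% outside in the lowest and 85.8% inside against 80.9% outside in the highest.

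Summits seen in replicate 2 alone lay inside genes more often. Of the 1916 replicate 2 summits with no partner, 994 (51.9%) lay inside genes and 15.6% lay 200 to 399 bp deep, against 30.1% and 6.66% of its 3576 summits with a partner. In replicate 1 the corresponding shares were 29.7% and 5.13% without a partner and 28.4% and 5.31% with one. Within replicate 2, 61.4% of summits less than 200 bp deep, 41.6% of those 200 to 999 bp deep and 59.0% of those at 1000 bp or deeper were found again. The part that read depth or peak calling had in this difference was not tested, since the lists hold no reads.

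**Figure D4:**
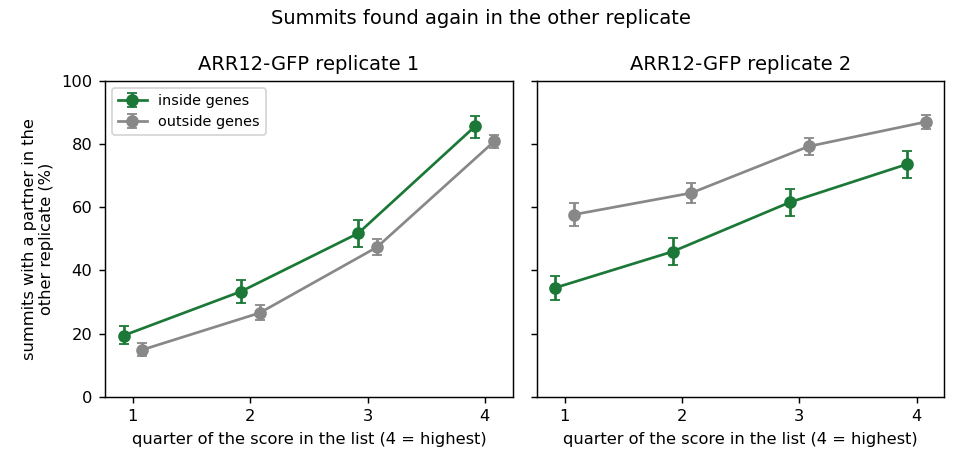
Percent of summits of ARR12-GFP replicate 1 (left) and replicate 2 (right) with a summit of the other replicate within 200 bp (y axis), by score class in their own list (x axis, 4 equal classes, 4 highest). Green is inside protein-coding genes, grey is outside, and bars are exact binomial 95% intervals. In replicate 2 the green points lie below the grey in every class, and in replicate 1 they lie above.

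The kinds of genes that held sites were described from 41 lists of gene families and functions drawn up by symbol. Genes with a symbol of their own held sites more often than genes known by locus tag alone, 530 of 10374 (5.11%) against 436 of 17070 (2.55%). From their lengths alone, with the share of each length class, 3.88% and 3.30% would hold one. As most list members have symbols, counts are read against the 5.11% of named genes. The lists cover 2219 genes and 157 of the 966 hosts. They held sites above that percent in 26 cases and below it in 15, of which 6 held none. The lists are short and many intervals span the background, so each count describes its list.

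**Figure D5:**
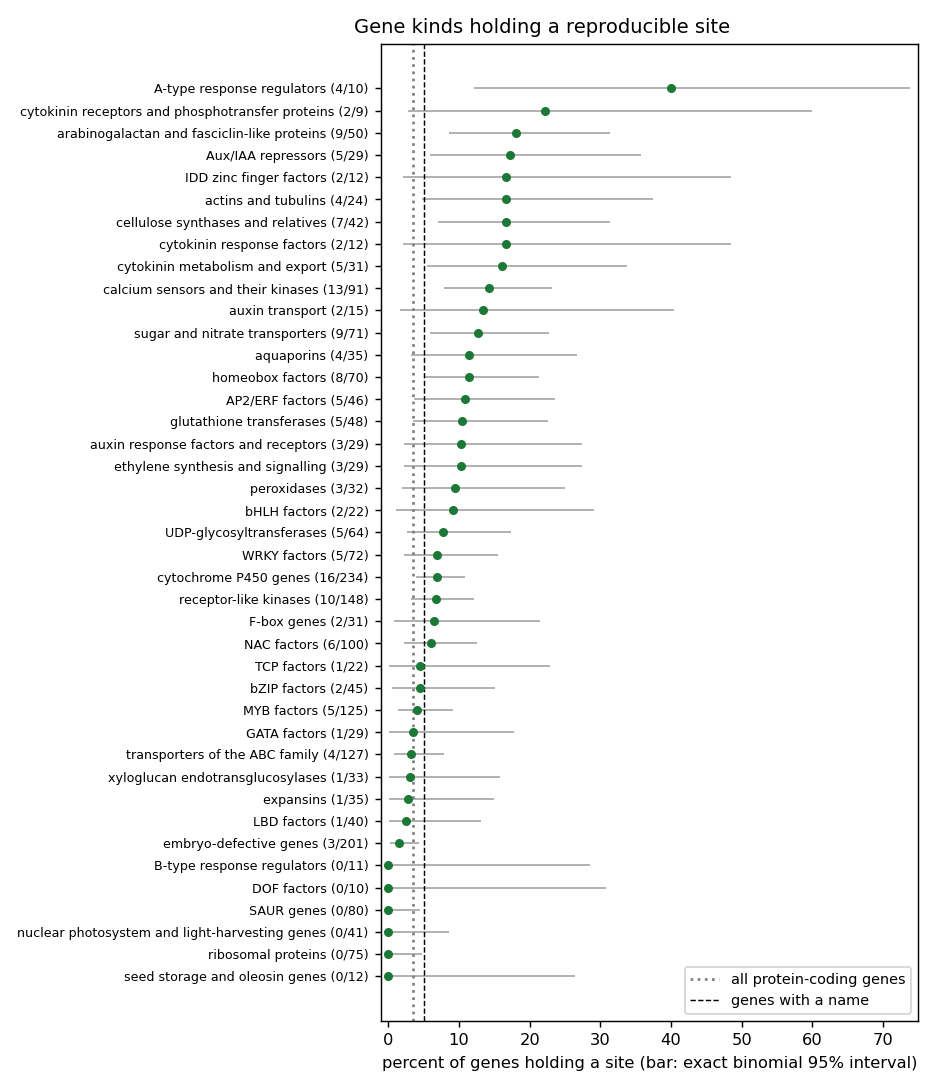
Percent of the genes in each of 41 lists that held a reproducible site (x axis), with the count held and the list size in parentheses. Bars are exact binomial 95% intervals, the dashed line marks the 5.11% of named genes and the dotted line the 3.52% of all protein-coding genes. A-type response regulators are highest at 4 of 10, and 6 lists, among them B-type response regulators and ribosomal proteins, hold none.

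Cytokinin genes held sites at several steps of the pathway, 13 of 73 over the 5 cytokinin lists (17.8%, interval 9.84 to 28.5). At the receptor, WOL (AT2G01830, also AHK4), a membrane histidine kinase, held 2 sites 1829 and 733 bp deep in a gene of 6725 bp. The deeper one had scores of 49.99 and 16.3 in ARR12-GFP replicates 1 and 2, and the other had 24.3 and 12.2. AHP1 (AT3G21510), a phosphotransfer protein gene, held a low-scoring site at 249 bp with scores of 8.14 and 4.04. These were the 2 holders among 9 receptor and phosphotransfer genes.

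Of the 10 A-type response regulators, 4 held a site (40%, interval 12.2 to 73.8), and 5 held a summit in each ARR12-GFP list taken alone. In the lists of replicates 1 and 2, 10.3% and 8.88% of named genes and 7.68% and 6.27% of all protein-coding genes held a summit away from Col-0 summits. RR5 (AT3G48100, also ARR5) held its site 68 bp from the nearer end, and its scores of 70.5 and 33.0 ranked at percentiles 98.8 and 97.6. In ARR6 (AT5G62920) the site lay at 45.2% of the gene's length, 1046 bp deep, with scores of 73.4 and 24.1. ARR4 (AT1G10470) had its site at 546 bp with scores of 25.6 and 5.995. RR3 (AT2G41310, also ARR8) held 2 sites, at 105 and 459 bp. The depths of these 5 sites ranged between 68 and 1046 bp, and the 2 highest-ranking ones, in RR5 and ARR6, lay at either end of that range.

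None of the 11 B-type response regulators held a reproducible site (0%, interval up to 28.5). ARR12-GFP replicate 1 alone had a summit inside 2 of them and replicate 2 inside none. RR12 (AT2G25180), the ARR12 gene itself, held a replicate 1 summit 222 bp deep with a score of 9.20, while the nearest replicate 2 summit was 12295 bp from the gene.

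Among genes of cytokinin metabolism, 5 of 31 held a site (16.1%, interval 5.45 to 33.7). UGT85A1 (AT1G22400), whose product glucosylates the cytokinin zeatin, held a site that ranked next to the highest of all those inside genes by the mean percentile of both lists. It lay at position 7906949 of chromosome 1, only 20 bp from the gene end, at percentiles 99.9 and 99.5. LOG7 (AT5G06300), which encodes a cytokinin-activating enzyme, held a site 1014 bp deep with scores of 25.3 and 16.6. CKX5 (AT1G75450), a cytokinin oxidase gene, held 2 sites, 1332 and 74 bp deep. UGT76C1, a cytokinin glucosyltransferase gene, and IPT5, a biosynthesis gene, held sites at 46 and 329 bp. The cytokinin response factors CRF1 (AT4G11140) and CRF2 (AT4G23750) held sites at 206 and 290 bp, with scores of 12.3 and 11.2 in CRF1 and 10.8 and 11.2 in CRF2, and they were 2 of 12.

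The auxin lists together held 10 of 153 genes (6.54%, interval 3.18 to 11.7), an interval that includes the 5.11% of named genes. This pooled share is weighed down by 80 SAUR genes, described below, of which none held a site. The lists of Aux/IAA repressors, of response factors and receptors, and of auxin transport held 17.2%, 10.3% and 13.3%. Of 29 Aux/IAA repressor genes, whose products are degraded upon auxin perception, 5 held a site (17.2%, interval 5.85 to 35.8), with IAA2, IAA7 and ATAUX2-11 (AT5G43700, also IAA4) the highest by rank. IAA2 (AT3G23030) held a site 222 bp deep with scores of 31.4 and 23.4. All 5 sites lay at most 222 bp from a gene end, and the median depth of all reproducible sites inside genes was 192 bp. The auxin receptor genes TIR1 (AT3G62980) and GRH1 (AT4G03190, also AFB1) held sites 94 and 125 bp deep, with scores of 36.4 and 26.9 in TIR1 and 35.5 and 14.3 in GRH1. With ARF19 they made 3 of the 29 auxin response factors and receptors. The influx carrier gene AUX1 (AT2G38120) held 2 sites, 2144 and 1073 bp deep, and ABCB19 (AT3G28860), an efflux transporter gene, held one 2306 bp deep. In these transport genes the sites lay at 24.9% to 49.8% of the gene's length. None of 80 SAUR genes, which are short and rapidly induced by auxin, held a site (0%, interval up to 4.51). Of all protein-coding genes of their lengths 1.83% held a site and of named genes 2.23%, and 16 of the 80 are named. In ARR12-GFP replicates 1 and 2 alone, 5 (6.25%) and 2 (2.5%) held a summit, against 7.68% and 6.27% of all protein-coding genes.

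Ethylene genes held 3 of 29 (10.3%, interval 2.19 to 27.4), an interval that includes the 5.11% of named genes. All 3 sites lay less than 200 bp deep, as did 51.6% of all reproducible sites inside genes. ETR2 (AT3G23150), a receptor gene, had a site 63 bp deep with scores of 44.4 and 16.6. EBF2, an F-box gene, and EIN2, which relays the signal, had sites 93 and 3 bp deep.

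Cell wall genes held 18 of 160 (11.3%, interval 6.81 to 17.2), and 16 of these were in 2 lists. Arabinogalactan and fasciclin-like proteins, glycoproteins of the cell surface, held 9 of 50 (18%, 8.58 to 31.4), though named genes of their short lengths held 3.46%. FLA2 (AT4G12730) held the highest of these sites, 154 bp deep with scores of 73.8 and 26.5, and a second site with scores of 7.68 and 3.24. Cellulose synthases and relatives held 7 of 42 (16.7%, 6.97 to 31.4). CESA1 (AT4G32410), a catalytic subunit for primary walls, had a site 104 bp deep with scores of 58.0 and 47.4. Expansins, which loosen walls, held 1 of 35, and xyloglucan endotransglucosylases held 1 of 33. The expansin was EXPA6 (AT2G28950), whose site 1048 bp deep ranked at percentiles 98.9 and 97.6.

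Calcium sensors and their kinases held 13 of 91 (14.3%, interval 7.83 to 23.2). In the separate ARR12-GFP lists 19 (20.9%) and 24 (26.4%) of these genes held a summit, against 10.3% and 8.88% of named genes. CML23 (AT1G66400), a calmodulin-like gene, had a site 101 bp deep with scores of 72.5 and 35.7, and CPK28 (AT5G66210), a calcium-dependent kinase gene, had one 86 bp deep with scores of 59.2 and 32.3. Sugar and nitrate transporters held 9 of 71 (12.7%, 5.96 to 22.7). Among them NRT1.1 (AT1G12110), a nitrate transporter and sensor gene, held a site 1904 bp deep with scores of 22.1 and 12.3. Aquaporins held 4 of 35, led by NIP5;1 (AT4G10380), a boric acid channel gene with 2 sites.

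Transcription factor lists together held 38 of 593 genes (6.41%, interval 4.57 to 8.69), an interval that spans the 5.11% of named genes. Homeobox factors held 8 of 70 and AP2/ERF factors 5 of 46. Lists drawn up by symbol are not whole families, so these counts can miss hosts. The hosts ORA47 (AP2/ERF), BLH1 (homeobox) and PIF4 (bHLH), for example, are in none of the lists. WRKY factors held 5 of 72, NAC factors 6 of 100, MYB factors 5 of 125 and DOF factors 0 of 10. In the lists of ARR12-GFP replicates 1 and 2 taken alone, 10.3% and 8.88% of named genes held a summit. For AP2/ERF factors these shares were 30.4% and 32.6%, for WRKY factors 19.4% in each and for homeobox factors 14.3% and 17.1%. NAC factors were at 12% and 10%, MYB factors at 5.6% and 8% and DOF factors at 0% in each. IDD5 (AT2G02070), a zinc finger factor gene, had a site 920 bp deep with scores of 76.7 and 39.3. BS1 (AT1G74500, also bHLH135), a bHLH factor gene, had a site 86 bp deep with scores of 8.16 and 4.91. LBD41 (AT3G02550) had one 197 bp deep with scores of 29.8 and 35.9.

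Lists of broadly expressed genes and of genes of other organs held sites in 7 of 350 genes (2%, interval 0.808 to 4.08). Ribosomal proteins held 0 of 75 (interval up to 4.80), nuclear photosystem and light-harvesting genes 0 of 41 and seed storage genes 0 of 12, and embryo-defective genes held 3 of 201 (1.49%, 0.309 to 4.30). Actins and tubulins, which are among these genes, held 4 of 24 (16.7%, 4.74 to 37.4). ACT2 (AT3G18780) held a site 8 bp from its end with scores of 20.5 and 21.9.

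By the mean of its percentiles in the 2 lists, the highest-ranking site inside a gene lay in AT3G10040, named HYPOXIA RESPONSE ATTENUATOR1, at position 3098235 of chromosome 3. It lay 182 bp deep with scores of 131.5 and 64.1 in ARR12-GFP replicates 1 and 2, and the 2 summits were 3 bp apart. UGT85A1, described above, ranked next by this measure. By score in replicate 2 alone, the highest inside a gene was 68.1, in AT5G21940, where the replicate 1 score was 49.9. ABCG42 (AT4G15233), an ABC transporter gene, had scores of 85.7 and 62.5 at a depth of 197 bp, and the ABC transporter list as a whole held 4 of 127. ARP1 (AT3G54770), an RNA-binding protein gene, had scores of 84.9 and 42.1 at 402 bp. AT5G66580 and AT5G51780 had scores of 80.4 and 55.0 and of 92.2 and 44.5 within 64 bp of an end. AT3G57450, AT1G04000 and AT2G43140 completed the first 10 with IDD5, and AT2G43140 held the deepest of these sites, 1109 bp from the nearer end. Of these 10 sites, 6 lay less than 200 bp deep.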

How the data were processed

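Anti-GFP ChIP-seq peak summits of 2 ARR12-GFP and 2 Col-0 libraries were used. MACS2 2.1.0, Bowtie 1.1.1, FastQC 0.11.2 and SAMtools, with build TAIR10, are named in the submitters' processing notes. The deposited lists give a −log10 score per summit. Not given in the sources used here are the caller's settings and whether the score is of a p or a q value. Peak names carry the library's name and are numbered within each list. Whether the authors called peaks on each library alone is otherwise not stated, and the lists are treated here as separate libraries.

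Summits were joined by single linkage, and groups came from the sample labels. Genes came from a RefSeq table of assembly TAIR10.1 that holds extents and symbols only. Its fit to the summits was checked by moving all sites in steps of 100 bp: the share inside genes was lowest without a move (29.3%) and reached 58.3% at -2000 bp and 56.7% at 2000 bp. Gene coordinates are not printed. Where 2 genes held a site, the one in which it lay deeper was its host. No genome or promoter sequence was used, so the planned motif search was not run and no sequence is shown.

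The members and gene lists were chosen with earlier results of these data known. The genes named were hosts of the 10 highest-ranking and 5 deepest sites, genes with 3 sites, the 3 longest and 3 shortest hosts, up to 3 holders per list by mean score percentile, and 10 cytokinin and auxin genes. RR3, CKX5, IPT5, CYP86A4, AT5G21940, ORA47, BLH1, PIF4 and the LOX genes fall outside this rule and were named after their values were seen. Libraries were compared by an exact permutation test, and nothing was tested over sites or genes, which are not replicates. The site and depth code was tested on simulated data. The software was pandas 2.3.3, SciPy 1.17.1, NumPy 2.4.6 and matplotlib 3.10.9 under Python 3.11.15. Alternatives were other linking and removal distances, summits at or above the median score, other host rules, organelle summits counted as outside, a replicate block and leaving out each library.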

Additional observations from a re-analysis of the deposited data

How the results depend on the processing

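Of 86 alternative values for results with no test, 76 stayed within the spread between libraries or within 1.5 times a count. Of 7 for the ARR12-GFP minus Col-0 share, 6 kept its direction, among them 17.6 points with organelle summits counted as outside (exact permutation p = 0.333). The spread between libraries was the SD of the values of the 2 ARR12-GFP replicates, which is a wide limit. For the score difference of -3.64 in replicate 2 it was 6.69, so a fall to -0.669 counted as within it. Without ARR12-GFP replicate 1, leaving the summits of replicate 2 alone, 38.0% lay inside genes, their median depth was 247.5 bp and 42.1% were less than 200 bp deep. Without replicate 2 these were 29.3%, 181 bp and 52.8%. Leaving out a library gave 1027 to 2353 sites inside genes and 967 to 2107 genes holding one. With only summits at or above the median score there were 470 sites in 457 genes, and the inside minus outside difference in replicate 1 percentile was -4.69. Under that setting the ARR12-GFP minus Col-0 share reversed to -2.79 points. The cause of these shifts was not tested, except that single libraries need no partner. The linking distance set the number of sites inside, with 744 at 100 bp and 1253 at 500 bp.

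Leaving out 1 library moved the ARR12-GFP minus Col-0 share between 3.76 and 12.3 points, and other leave-one-out shares inside genes lay between 29.1% and 38.0%. Depths then ran between 181 and 247.5 bp, shares within 200 bp between 42.1% and 52.8%, and score differences between -13.1 and -10.7 in replicate 1 and between -8.71 and -3.62 in replicate 2. With the replicate number as a block the difference was 8.03 points (exact sign-flip permutation test, two-sided, p = 1), from pairs of -0.497 and 16.6. Deviations of same-numbered libraries had a correlation of -0.0040 over 1081 bins of 100 kb. The Col-0 lists hold only 199 and 251 summits, so this value cannot tell whether same-numbered libraries were prepared together. With 2 libraries per genotype no p below 0.333 was possible, and depth of sequencing is unknown.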

Other observations

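Families grouped by the stem of their symbols gave 433 stems of at least 5 genes, of which 277 held no site. The highest shares were in CYP86A, with 4 of 5 genes, and LOX, with 4 of 6, and both were singled out after their values were seen. Over all named genes 5.11% held a site, and 16 genes of the whole cytochrome P450 list did (6.84% of it, interval 3.96 to 10.9). CYP86A genes encode fatty acid hydroxylases of cutin and suberin synthesis. CYP86A7 (AT1G63710) held a site 809 bp deep with scores of 36.8 and 38.8 in ARR12-GFP replicates 1 and 2, and CYP86A2 (AT4G00360) one 1163 bp deep with scores of 32.4 and 22.6. CYP86A8 (AT2G45970) and CYP86A4 (AT1G01600) held sites 489 and 1152 bp deep, and CYP86A1 held none. All 4 sites thus lay deeper than the median of 192 bp.

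LOX genes encode lipoxygenases, which start the synthesis of oxylipins such as jasmonate. Their sites lay 1861 bp deep in LOX4 (AT1G72520), 1959 bp in LOX3 (AT1G17420), 1320 bp in LOX5 (AT3G22400) and 942 bp in LOX6 (AT1G67560). LOX4 had the highest scores, 46.9 and 31.8, and LOX1 and LOX2 held no site. Sequence alike between members of a family can share reads, and its part in these counts was not tested.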
